A study of Mus musculus with 44 samples.

Results

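The splicing factor and hnRNP genes are the rows whose symbol starts with Prpf, Srsf, Sf3a, Sf3b, Snrp, U2af or Hnrnp. There were 64 such genes among 8203 rows measured by TRAP-seq in 44 mice, with 11 Prpf, 11 Srsf, 8 Sf3a or Sf3b, 11 Snrp, 3 U2af and 20 Hnrnp genes. In TRAP-seq a tagged ribosome is pulled down and the RNA that comes with it is sequenced, so a value is the abundance of RNA in the pulldown. No library of unbound RNA is among the samples. RNA carried over from other cells or compartments could therefore not be told apart from RNA on tagged ribosomes. All mice were heterozygous Crh-TRAP mice, in which a Crh-Cre transgene switches on an eGFP-L10a ribosomal protein from the Rosa26 locus, and the tag therefore marks cells in which the Crh promoter drove Cre. Mice were 10 to 16 weeks old, and punches centred on the amygdala of 1 mouse made 1 sample.

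TA mice heard 5 tones without shock and numbered 16 (10 males, 6 females). FC mice heard 5 tones that each ended with a 0.65 mA foot shock and numbered 12 (6 males, 6 females). EXT mice had the FC training, heard 30 tones without shock in another context on the next day, and numbered 16 (10 males, 6 females). EXT and TA mice therefore differed in the shocks, in the extinction session and in the day of sacrifice. Values are log2 cpm, the log2 of reads scaled to a common library size. The libraries held 12802114 to 20440352 reads, and the fewest reads of any member in any mouse were 101.

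Splicing removes introns from pre-mRNA in the spliceosome, which is built from small nuclear ribonucleoproteins (snRNPs) and many other proteins. The U1 snRNP binds the 5′ splice site, U2AF and the U2 snRNP with its SF3 complexes bind the 3′ splice site and branch point, and the PRPF proteins of the tri-snRNP and of the activated complex carry the spliceosome to catalysis. SR proteins (Srsf genes) mostly favour the use of nearby splice sites, while hnRNP proteins coat nascent RNA and often repress sites. Neurons use alternative splicing heavily, and many of these proteins also act in RNA export, stability and translation.

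The labels give 5 batches, and batches 3 (5 mice) and 4 (1 mouse) hold EXT mice only, so group and batch cannot be told apart there. Batch carried a median of 49.6% of a member's variance, against 41.5% over all genes. Batch numbers are names without a scale, so differences were estimated by limma with batch as categories and sex as a factor, with Benjamini-Hochberg adjustment over all 8203 genes and a threshold of 0.05. In that fit the mice of batches 3 and 4 have no TA mice beside them, and they bear on the EXT minus TA difference only through the sex term and on its error. What batch as a number changed is given within each comparison.

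6 EXT libraries stood apart. The 9 measured transcripts of a list of mitochondrial transcripts and Malat1 summed to between 27800 and 44100 cpm in EXT replicates 1, 2, 5, 8, 11 and 12. The highest sum in the other 38 mice was 10300 cpm. Of these 6 mice, 4 were from batch 3, 1 from batch 4 and 1 from batch 2. Of the 8 GABAergic markers, 6 were measured, Crh, Gad1 and Gad2 among them, and their summed level was 1270 to 2010 cpm in TA, 1030 to 1740 cpm in FC and 1050 to 1800 cpm in EXT mice. In EXT against TA 5 of these 6 had a negative difference (median −0.19, 2 at an unadjusted p under 0.05), and their part in the member values was not tested. Oligodendrocyte markers (9 of 10 measured) summed to a median of 3480 cpm in TA mice and 7180 cpm in the 6 EXT mice that stood apart.

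Sequence upstream of the start is shown for 4 of the members described in EXT against TA, as examples. Each line holds the 120 bases before the RefSeq start in build GRCm38.p6, 5′ to 3′ on the strand of the gene. Capitals mark CCGGAA (ETS) and GGGCGG (Sp1) on either strand. All 4 lines hold such letters, while the same bases of U2af1l4, Snrpg, Hnrnpk and Hnrnpa2b1 hold neither. A link between letters and values was not tested. Snrpe lies at chr1:133610281-133610400 on the minus strand, Hnrnpu at chr1:178337816-178337935 on the minus strand, Prpf6 at chr2:181601199-181601318 on the plus strand and Hnrnph2 at chrX:134601059-134601178 on the plus strand.
Snrpe: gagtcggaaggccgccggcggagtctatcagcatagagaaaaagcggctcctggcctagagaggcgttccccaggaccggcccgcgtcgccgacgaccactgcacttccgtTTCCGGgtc
Hnrnpu: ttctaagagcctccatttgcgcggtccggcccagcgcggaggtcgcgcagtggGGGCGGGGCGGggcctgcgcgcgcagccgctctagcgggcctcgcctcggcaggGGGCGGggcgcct
Prpf6: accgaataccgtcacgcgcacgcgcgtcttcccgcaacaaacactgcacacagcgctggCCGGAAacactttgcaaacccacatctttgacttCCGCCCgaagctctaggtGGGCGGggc
Hnrnph2: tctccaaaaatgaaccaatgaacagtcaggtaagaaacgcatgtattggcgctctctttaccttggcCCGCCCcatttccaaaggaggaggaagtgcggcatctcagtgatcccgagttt

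RefSeq promoters of 300 bases (both sides of the start) matched 55 of the 64 members and 6393 genes of the table, and a gene counts where any of its promoters holds the letters. The letters CCGGAA stood on either strand in 28 member promoters (50.9%), against 32.9% of the promoters of all measured genes. The shorter CRE site TGACG stood in 31 member promoters (56.4%, against 39.3%), and the whole CRE, TGACGTCA, which contains it, in 2 (3.64%, against 4.07%). GGGCGG was in 70.9% of member promoters and 72.3% of all measured genes' promoters. AAGATGGC (YY1) was in 5.45% against 6.27% and TATAAA in 12.7% against 7.87%. A match is a description of the letters and not a binding site.

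The members spanned low to high levels among the genes of the table, all of which had passed a cpm minimum in every retained sample. On the log2 cpm per kb scale, which divides by exon length, the levels ranged from 2.07 (Prpf4b, a kinase of the tri-snRNP) to 9.92 (Snrpn), with a median of 4.8 against 4.04 over all genes with a length. Snrpn, which encodes the neuronal Sm protein SmN, exceeded 99.6% of all genes. In log2 cpm it lay between 10.77 and 11.47 in TA, 10.95 and 11.41 in FC and 10.45 and 11.81 in EXT mice, so the groups overlapped. It shares exon bases with Snurf and Gm38393, and reads of these could not be told apart from its own. Hnrnpa2b1, an RNA-binding protein of RNA transport, followed at 7.5 per kb and Srsf9 at 7.25. In the other roles the members with the highest level per kb were Hnrnpk (6.95), Sf3b6 (6.54), U2af1l4 (6.5), Hnrnph1 (5.41), Snrpa (5.34), Hnrnpdl (4.86), Prpf31 (4.82), Hnrnpu (4.79) and Prpf40b (3.22). The median SD of a member over the mice was 0.394, which is a spread between mice and not the error of a rank. The order also depends on the exon lengths used, and the order of members with near levels was not tested.

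EXT against TA asks which pulled-down RNAs differed after extinction. In all 16 EXT and 16 TA mice no member passed the adjusted threshold, and the smallest adjusted p of a member in limma was 0.143. Over all genes 2 passed (0.0244%). At an unadjusted p under 0.05, 4 members were higher in EXT (6.25%, against 10.2% of all genes) and 13 were lower (20.3%, against 11% of all genes). Without EXT replicate 1 these counts were 8 and 7, and without EXT replicate 6 or 10 the lower count was 3 or 6. The EXT minus TA difference was positive in 21 members and negative in 43, with a median of −0.11 on the log2 scale against 0.01 over all genes.

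With batch as categories the signs of the differences were not spread evenly over the roles. In the Sm core, the ring of proteins that snRNPs share, 6 of 7 members had a positive difference (median 0.12, 2 at an unadjusted p under 0.05). With batch as a number 3 Sm genes had a positive and 4 a negative difference (median −0.03), with 0 called higher and 1, Snrpb, called lower. Of the 8 SF3 genes 6 had a negative one (median −0.13, 4 at that p), and of the 11 Prpf genes 9 did (median −0.17, 2 at that p). Of the 20 Hnrnp genes 16 had a negative difference (median −0.15, 6 at that p), among them all 6 of the hnRNP C, K, L, M and R genes and all 4 of the hnRNP F/H genes. The 11 Srsf genes had 4 positive and 7 negative differences, with a median of −0.04 and 1 at that p. Without the 6 mice that stood apart, all 7 Sm genes had a positive difference (median 0.19, 5 at an unadjusted p under 0.05) and 15 of 20 Hnrnp genes a negative one (median −0.09, 5 at that p). In that fit 10 members were higher and 16 lower at an unadjusted p under 0.05, against 11.4% and 12.4% of all genes.

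**Figure D1:**
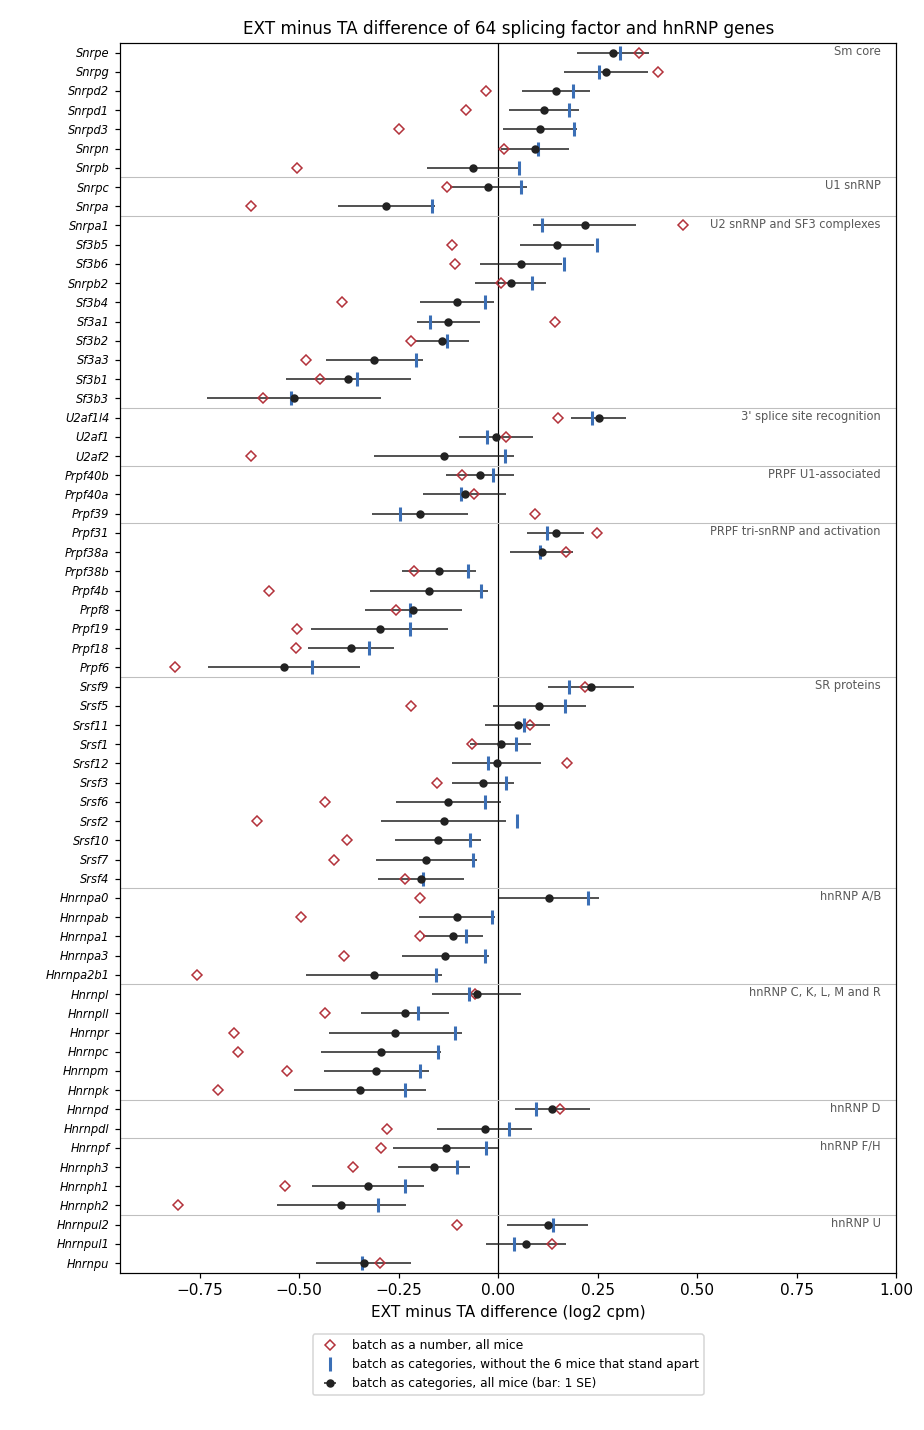
EXT minus TA difference (x axis, log2 cpm) of each of the 64 members, ordered by role. Filled points with bars of 1 SE have batch as categories, diamonds have batch as a number, and vertical ticks leave out the 6 EXT mice that stood apart. Most diamonds of the hnRNP genes lie to the left of the filled points, and the Sm core genes Snrpe and Snrpg lie right of 0 in each fit.

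With batches 3 and 4 left out, 5 members were called in this comparison. With the 10 EXT mice of batches 1, 2 and 5, limma called U2af1l4 (0.25 ± 0.06 SE, adjusted p = 0.0338), Snrpe (0.29 ± 0.07, adjusted p = 0.0368) and Snrpg (0.26 ± 0.08, adjusted p = 0.0475) higher in EXT. It called Prpf18 (−0.36 ± 0.08, adjusted p = 0.0328) and Prpf6 (−0.53 ± 0.15, adjusted p = 0.0462) lower. Of all genes 2.15% were called higher and 2.84% lower. These differences were as large with all mice, and 1 library decided the calls. Without EXT replicate 3 of batch 3 alone, the same 5 members were called, with adjusted p from 0.0272 (U2af1l4) to 0.0431 (Prpf6), and 5.75% of all genes were called. Without the 6 mice that stood apart, U2af1l4 (adjusted p = 0.0477), Snrpe (0.0465) and Prpf18 (0.0465) were called, with Sf3b5, named after its values were seen (0.25 ± 0.06, adjusted p = 0.0465). That fit called 0.561% of all genes higher and 1% lower.

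U2af1l4 encodes a relative of the small U2AF subunit, which reads the AG of the 3′ splice site. In TA mice it ranged from 6.04 to 6.56 log2 cpm (median 6.35), in FC mice from 6.13 to 6.52 (median 6.32) and in EXT mice from 5.90 to 6.78 (median 6.48). The groups overlapped, but all 10 EXT mice of batches 1, 2 and 5 lay above the TA median. The difference was 0.34 in batch 1, 0.29 in batch 2 and 0.18 in batch 5, and 0.25 ± 0.07 (SE) over all mice, a fold of 1.19. Of its exon bases 94.3% are shared with Gm49396 on the same strand, so reads of these 2 genes could not be told apart.

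Snrpe and Snrpg encode SmE and SmG, which sit side by side in the Sm ring. Snrpe ranged from 4.84 to 7.37 log2 cpm in TA mice (median 6.90), from 5.20 to 7.83 in FC mice (median 7.06) and from 5.44 to 7.42 in EXT mice (median 7.09). This wide range was a difference between batches, since the TA mice of batch 1 lay between 4.84 and 5.11 and those of batches 2 and 5 between 6.79 and 7.37. Batch carried 90.8% of the variance of Snrpe and 83.8% of that of Snrpg. Within batches the EXT minus TA difference of Snrpe was 0.53, 0.29 and 0.16 (batches 1, 2 and 5), and 0.29 ± 0.09 (SE) over all mice. In batch 1 both EXT mice (5.44 and 5.60) lay above all 4 TA mice, and so did all 5 FC mice (5.20 to 5.93). In batches 2 and 5 the EXT and TA ranges overlapped.

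Snrpg ranged from 4.69 to 6.71 log2 cpm in TA mice (median 6.31) and from 4.91 to 6.93 in EXT mice (median 6.67). Its differences were 0.31, 0.33 and 0.20 in batches 1, 2 and 5. Above the TA median lay 13 of 16 EXT mice, and 8 of 10 in batches 1, 2 and 5. That median is taken over all batches. Batch 1, where Snrpg was lowest, held 4 of 16 TA and 2 of 16 EXT mice, so the count also depends on the batches. Over all mice the difference was 0.27 ± 0.11 (SE). The other Sm genes had differences of 0.14 (Snrpd2), 0.12 (Snrpd1), 0.10 (Snrpd3), 0.09 (Snrpn) and −0.06 (Snrpb), none at an unadjusted p under 0.05.

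Prpf18 acts in the second catalytic step of splicing. It ranged from 5.79 to 6.59 log2 cpm in TA mice (median 6.16), from 5.53 to 6.45 in FC mice (median 6.05) and from 4.87 to 6.29 in EXT mice (median 5.76). Values under the TA median were seen in 15 of 16 EXT mice, and in 10 of 10 in batches 1, 2 and 5. In batch 2 the 3 EXT mice (5.54 to 5.73) lay below all 5 TA mice (6.16 to 6.40). The ranges overlapped in batch 1 (5.85 to 5.92 against 5.79 to 6.59) and in batch 5 (5.78 to 6.1 against 6.0 to 6.33). The difference over all mice was −0.37 ± 0.11 (SE), a fold of 0.774, and −0.35, −0.67 and −0.17 in batches 1, 2 and 5.

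Prpf6, a bridging protein of the tri-snRNP, had the largest negative difference of the members. It ranged from 5.78 to 6.95 log2 cpm in TA mice (median 6.02), from 5.08 to 6.43 in FC mice (median 5.81) and from 4.22 to 6.54 in EXT mice (median 5.20). The mouse of batch 4 had 4.24 and the 5 mice of batch 3 had 4.22 to 6.50, so the lowest values came from the batches without TA mice. The difference was −0.93, −0.63 and −0.27 in batches 1, 2 and 5 and −0.54 ± 0.19 (SE) over all mice.

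**Figure D2:**
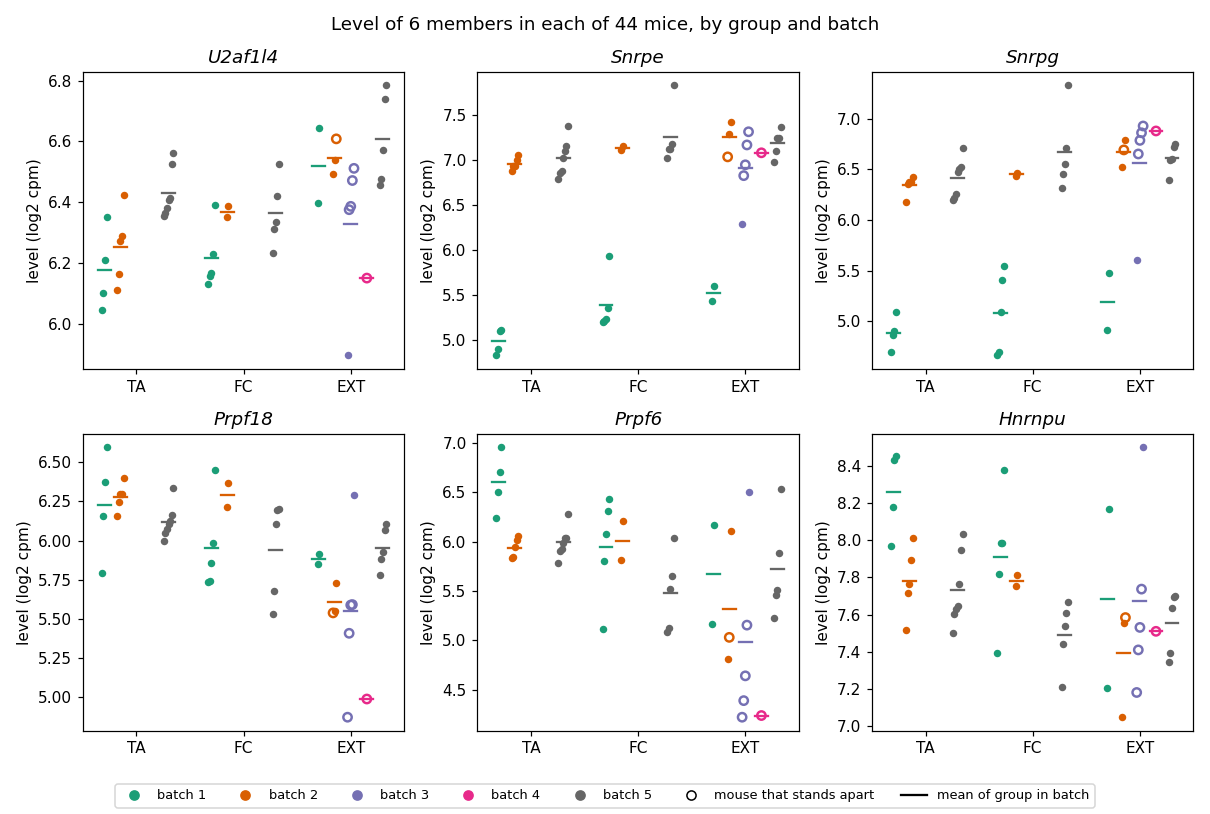
Level (y axis, log2 cpm) of U2af1l4, Snrpe, Snrpg, Prpf18, Prpf6 and Hnrnpu in each mouse, by group (x axis) and batch (colour). Open circles are the 6 EXT mice that stood apart and short lines are means of a group in a batch. Snrpe and Snrpg lie lowest in batch 1 in each group, and the EXT mouse of batch 3 that did not stand apart lies outside the range of the other mice of its batch in each of the 6 genes.

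Among the hnRNP genes Hnrnpu, a nuclear matrix protein of chromatin and RNA, had the smallest p. It ranged from 7.5 to 8.45 log2 cpm in TA mice (median 7.83) and from 7.05 to 8.5 in EXT mice (median 7.54), and the groups overlapped. Its difference was −0.34 ± 0.12 (SE), with −0.57, −0.39 and −0.18 in batches 1, 2 and 5. Hnrnph2, which binds G-rich RNA, had a TA range of 7.29 to 8.03 and an EXT range of 5.59 to 7.77, with a difference of −0.39 ± 0.16 (SE) and −0.49, −0.68 and −0.14 in these batches. Hnrnpk and Hnrnpa2b1 had differences of −0.35 ± 0.17 and −0.31 ± 0.17 (SE). For most Hnrnp genes batch 2 held the largest difference and batch 5 a small one, such as −0.87 and 0.08 for Hnrnpr. The Hnrnp genes of the EXT mice of batch 2 held 0.170% of the reads in replicate 1, which stood apart. They held 0.312% in replicate 9 and 0.233% in replicate 10, which did not stand apart. Leaving out 1 mouse at a time gave differences of −0.38 to −0.24 for Hnrnpu and −0.45 to −0.30 for Hnrnph2. The part of single mice in the differences within batches and in the other Hnrnp genes given here was not tested.

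Sf3a3, a subunit of the SF3a complex, ranged from 5.68 to 6.26 log2 cpm in TA and 4.73 to 6.06 in EXT mice, with a difference of −0.31 ± 0.12 (SE). Sf3b1, the SF3 subunit that holds the branch point, ranged from 6.05 to 7.31 in TA and 5.27 to 7.34 in EXT mice, with −0.38 ± 0.16 (SE) and −0.48, −0.32 and −0.35 in batches 1, 2 and 5. Among members with positive differences, Srsf9 had 0.23 ± 0.11 (SE) and Prpf31, a tri-snRNP protein, 0.14 ± 0.07 (SE). Prpf19, a ubiquitin ligase of the activated spliceosome, had a difference of −0.30 ± 0.17 (SE) with an unadjusted p of 0.0953. This difference was −0.33, −0.68 and −0.02 in batches 1, 2 and 5. Each of 16 EXT mice was under the TA median of 7.03, but that median is taken over all batches. In batch 5 the TA median was 6.83 and the EXT median 6.88, so the count also depends on the batches.

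The coding of batch changed the count of calls. With batch as a number, 29 of 64 members passed the adjusted threshold in EXT against TA (45.3%, against 21.4% of all genes). Of these 28 fell in EXT (43.8%, against 11% of all genes) and 1 rose (1.56%, against 10.4%), which was Snrpa1, a U2 snRNP protein named after its value was seen. The 28 were 12 of 20 Hnrnp genes, 5 of 8 SF3 genes, 4 of 11 Prpf genes, 4 of 11 Srsf genes, and Snrpb, Snrpa and U2af2, the last named after its value was seen. The median difference of the 20 Hnrnp genes was −0.38 in that fit, against −0.15 with categories. U2af1l4 had a smaller difference there (0.15 ± 0.07 SE, adjusted p = 0.126). Snrpe (0.35 ± 0.18 SE, adjusted p = 0.156) and Snrpg (0.40 ± 0.16 SE, adjusted p = 0.0648) were not called. Lower calls by limma included Prpf18 (−0.51 ± 0.11 SE, adjusted p = 0.013), Sf3b1 (−0.45 ± 0.14, adjusted p = 0.0261) and Hnrnpu (−0.30 ± 0.11, adjusted p = 0.0464). Prpf6 (−0.81), Hnrnph2 (−0.80), Hnrnpa2b1 (−0.76), Hnrnpk (−0.70), Hnrnpr (−0.67), Prpf19 (−0.51) and Sf3a3 (−0.48) were each over 1.5 times as far from 0 as with categories, and all 7 were called lower. Prpf31 had 0.25 and was not called. The sign turned in both directions, and all members concerned are listed here. Snrpd2 (−0.03), Snrpd1 (−0.08), Snrpd3 (−0.25), Sf3b5 (−0.12), Srsf5 (−0.22), Hnrnpa0 (−0.20), Hnrnpul2 (−0.10), Sf3b6 (−0.11) and Srsf1 (−0.06) turned negative. Sf3a1 (0.14), Prpf39 (0.09), Srsf12 (0.17) and U2af1 (0.02) turned positive. None of these members was called. Without the 6 mice that stood apart, the same coding called 0 members and 0 of all genes, and at an unadjusted p under 0.05 it gave 1 higher and 4 lower members.

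The share of reads taken by these genes was lowest in the same 6 mice. The 64 members together held 0.909% to 1.10% of the reads in TA mice (median 0.975%), 0.780% to 1.08% in FC mice (0.966%) and 0.833% to 1.02% in the other 10 EXT mice (0.962%). In the 6 mice that stood apart they held 0.629% to 0.732% (median 0.652%), below every other mouse. The Hnrnp genes held 0.144% to 0.186% there, against 0.305% to 0.404% in TA mice and 0.233% to 0.378% in the other EXT mice. The Snrp genes held 0.262% to 0.302% there, against 0.285% to 0.386% in TA mice, so their ranges overlapped. These mice were found by their mitochondrial and Malat1 level, and its part in the hnRNP values was not tested. In pulled-down RNA of a tissue punch, fewer cells of a type and less RNA per cell cannot be told apart.

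**Figure D3:**
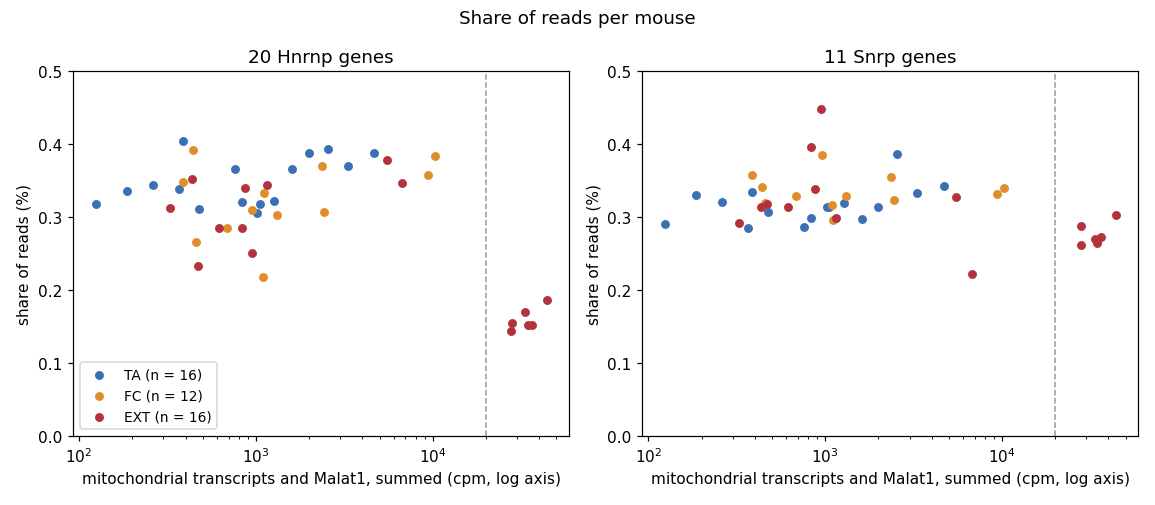
Share of a mouse's reads (y axis, %) taken by the 20 Hnrnp genes (left) and the 11 Snrp genes (right) against the summed level of mitochondrial transcripts and Malat1 (x axis, cpm, log scale). Points are mice coloured by group, and the dashed line marks 20000 cpm. The 6 EXT mice right of the line have Hnrnp shares of 0.144% to 0.186%, and the other 38 mice have 0.217% or more.

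FC against TA asks which RNAs differed after fear conditioning. No member and no gene passed the adjusted threshold (0% of all genes), and the smallest adjusted p of a member was 0.13 in limma. With batch as a number there were also 0 calls. At an unadjusted p under 0.05, 5 members were higher (7.81%, against 8.61% of all genes) and 10 lower (15.6%, against 8.2% of all genes). Without FC replicate 4 or 10 the higher count was 3. Differences were positive in 21 members and negative in 43, with a median of −0.05. Of the 20 Hnrnp genes 18 had a negative difference (median −0.11) and of the 11 Snrp genes 8 a positive one (median 0.10). The TA mice are shared by this comparison and EXT against TA, so the 2 sets of differences are not independent.

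Hnrnpl, which binds CA repeats, had the smallest p among the members with a negative difference. It ranged from 5.91 to 6.68 log2 cpm in TA mice (median 6.27) and from 5.61 to 6.68 in FC mice (median 5.87). Its difference was −0.34 ± 0.10 (SE), with −0.30, −0.01 and −0.53 in batches 1, 2 and 5. Prpf6 and Prpf19 had larger differences with larger errors. Prpf6 had −0.43 ± 0.13 (SE), with −0.66, 0.07 and −0.51 in these batches, so batch 2, with 2 FC mice, went the other way. Prpf19 ranged from 5.77 to 7.41 in TA and 5.53 to 7.30 in FC mice, with −0.43 ± 0.15 (SE) and 11 of 12 FC mice below the TA median. Hnrnpul1, a relative of Hnrnpu, had −0.25 ± 0.08 (SE).

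The 5 members higher at an unadjusted p under 0.05 were Snrpe, Snrpb2, Prpf31, Snrpc and Sf3b6. Snrpe had a difference of 0.28 ± 0.09 (SE), with 0.40, 0.17 and 0.23 in batches 1, 2 and 5. Snrpb2 of the U2 snRNP had 0.21 ± 0.08 (SE) with 0.17, 0.25 and 0.22, Snrpc of the U1 snRNP had 0.22 ± 0.10 (SE), and Prpf31 had 0.13 ± 0.05 (SE). Sf3b6, the branch-point subunit of SF3b, had 0.23 ± 0.10 (SE). With batch as a number no member was higher at an unadjusted p under 0.05, and the differences were 0.11 for Snrpe, 0.13 for Snrpc, 0.05 for Prpf31 and 0.05 for Sf3b6. In this comparison all 10 astrocyte markers had a positive difference (7 at an unadjusted p under 0.05), with summed levels of 722 to 2860 cpm in TA and 1040 to 2460 cpm in FC mice. Of the 6 measured GABAergic markers 5 had a negative difference (3 at that p), and all 4 measured choroid plexus markers did (2 at that p), with summed levels of 187 to 27500 cpm in TA and 673 to 19400 cpm in FC mice. All 9 measured oligodendrocyte markers (median 0.32) and all 9 mitochondrial transcripts and Malat1 (median 0.34) had a positive difference, with 0 at that p. FC replicate 2 had the highest oligodendrocyte sum of all mice, 18800 cpm, and the lowest Hnrnp share outside the 6 mice that stood apart, 0.217%. Their part in the member values was not tested.

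EXT against FC, the comparison of the groups that both received shocks, gave 0 calls among the members and among all genes (0%), and the smallest adjusted p of a member was 0.975 in limma. At an unadjusted p under 0.05, 2 members were higher (3.12%, against 2.22% of all genes) and 0 were lower (against 1.97%). Without EXT replicate 7 the higher count was 1, and without EXT replicate 2, 3, 4 or 10 or FC replicate 3 the lower count was 1. These were U2af1l4 (0.25 ± 0.09 SE, with 0.31, 0.18 and 0.24 in batches 1, 2 and 5) and Hnrnpul1 (0.34 ± 0.14 SE, with 0.22, 0.06 and 0.54). The next members by p were Hnrnpl (0.28 ± 0.15 SE) and Prpf40b (0.19 ± 0.13) with a positive difference, and Srsf7 (−0.26 ± 0.13), Hnrnpf (−0.23 ± 0.14), Snrpc (−0.17 ± 0.12) and Snrpb2 (−0.15 ± 0.11) with a negative one. U2af1l4 levels in FC mice (6.13 to 6.52, median 6.32) lay close to those in TA mice, with an FC minus TA difference of 0.01 ± 0.05 (SE). The coding of batch as a number also gave 0 calls among the members and among all genes, while 3 members were higher (against 11% of all genes) and 21 lower (against 8.35%) at an unadjusted p under 0.05. In that fit U2af1l4 had 0.15, Srsf7 −0.52 and Hnrnpf −0.39.

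The sexes were compared by an interaction of group and sex, and no member and no gene passed the adjusted threshold for EXT against TA (0%) or FC against TA (0%). At an unadjusted p under 0.05, 3 members had a more positive EXT minus TA difference in males than in females (against 3.32% of all genes) and 0 a more negative one (against 2.71%). These were Prpf38b, Srsf12 and Srsf3, named after their values were seen. For FC minus TA, 8 members had a more positive difference in males (12.5%, against 3.1% of all genes) and 0 a more negative one (against 6.52%). Of these 8, 7 were Hnrnp genes. Hnrnph1, for instance, had an FC minus TA difference of 0.11 in males and −0.49 in females, with an adjusted p of 0.4 for the interaction. Sex and batch were not balanced in the FC mice. Most FC females came from batch 1, and both FC mice of batch 2 were males. Over both sexes the difference of Hnrnph1 was −0.38, 0.13 and −0.13 in batches 1, 2 and 5. FC replicate 2, with the lowest Hnrnp share of the FC mice (0.217%), was a female. The parts of batch and of single mice in these counts were not tested.

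With batch as categories, members with short transcripts had the more positive differences. Of the 16 shortest members (exon length 0.913 to 1.92 kb) 10 had a positive EXT minus TA difference, with a median of 0.11, and all measured genes of that length had a median of 0.10. Of the 16 longest (4.11 to 21.5 kb) 3 had a positive difference, with a median of −0.19 against −0.04 for all genes of that length. Spearman's rho between exon length and the EXT minus TA difference was −0.46 over 64 members and −0.27 over 8023 genes, and −0.51 and −0.39 without the 6 mice that stood apart. For FC minus TA it was −0.37 and −0.30. In the fit with batch as a number rho for EXT minus TA was −0.30 over the members and 0.05 over all genes, and for FC minus TA −0.34 and −0.22. The 16 shortest members had a median EXT minus TA difference of −0.06 in that fit, and all genes of their length near 0. The points share the same libraries and no p is given. The Snrp genes are among the shortest members and the Hnrnp genes among the longer ones, so role and length move together here, and their parts were not tested.

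**Figure D4:**
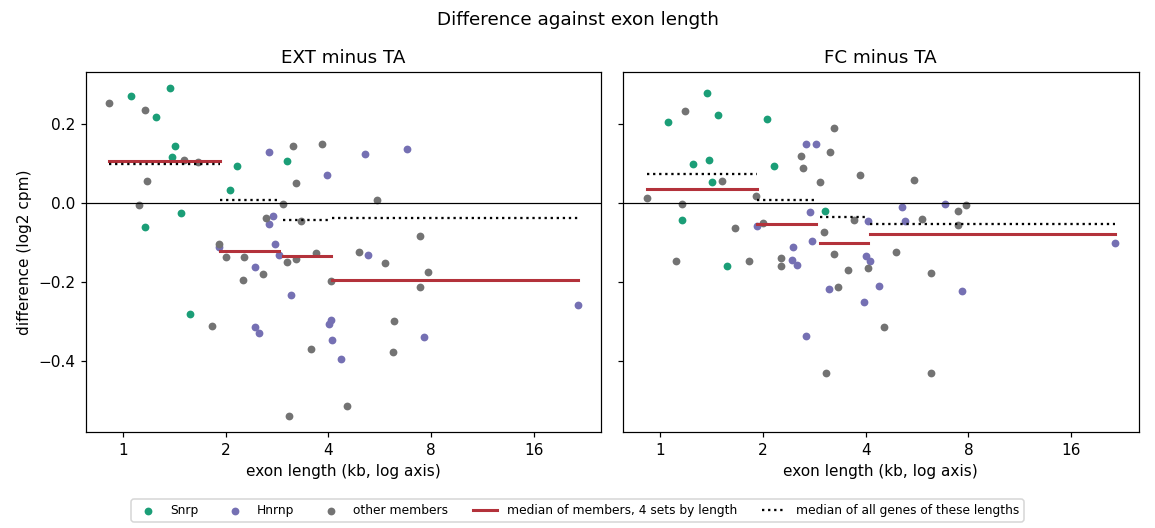
EXT minus TA (left) and FC minus TA (right) differences (y axis, log2 cpm) of the 64 members against exon length (x axis, kb, log scale), with batch as categories. Solid lines are medians of the members in 4 sets of 16 by length and dotted lines are medians of all genes of those lengths. In the shortest set both EXT minus TA medians lie near 0.1, and in the other sets the members' medians lie below those of all genes.

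Other genes of splicing, listed by function outside the symbol rule, were counted in the same fits. Of 126 listed genes 113 were measured. In EXT against TA 42 had a positive and 71 a negative difference (median −0.08), and 0 were called. The unadjusted p was under 0.05 for 13 higher and 26 lower genes (10.2% and 11% of all genes). With batch as a number 5 were called higher and 36 lower, and the median was −0.16 (10.4% and 11% of all genes called). With batch as categories, 17 of 24 helicases and catalytic-step proteins had a negative difference (10 at an unadjusted p under 0.05, median −0.23). The other 7 had a positive one (2 at that p). In the same fit 15 of 23 other snRNP proteins had a positive difference (8 at that p) and 8 a negative one (6 at that p), with a median of 0.13. With batch as a number 2 of these 23 were called higher and 4 lower, and their median was 0.04. In FC against TA with batch as categories, 50 of the 113 had a positive and 63 a negative difference (median −0.01), and 0 were called.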

How the data were processed

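Per the labels, reads were trimmed (Trimmomatic 0.36), aligned to GRCm38 (STAR), counted by gene and taken into edgeR. Only genes past a cpm minimum in every retained sample are in the table. The authors deposited log2 cpm values in the form of limma's voom, made from reads plus 0.5. Some animal columns are recorded as other in unit but hold these same deposited log2 values. Whole reads were recovered for 360932 of 360932 values, to a tolerance of 0.05 read.

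Groups, sex and batch came from the sample labels. Two-sided tests were run in limma (version 3.58.1, with R 4.3.3) by lmFit and eBayes, with Benjamini-Hochberg adjustment over 8203 genes. The methods of the study state control for batch and sex without a coding. Named members were the 6 (EXT against TA) or 4 (other comparisons) with the smallest p in each direction, called members, Prpf18 and the highest per length in each role. The members, lists and tests were chosen with earlier results of these data known. Exon lengths and overlaps are from GENCODE release M21 and promoters from RefSeq on GRCm38.p6. The kit is not stated to keep strand. Replicates are individual mice. Methods were tested on simulated data. Descriptions were computed in Python 3.11.15 with scipy 1.17.1, and plots drawn in matplotlib 3.10.9. The covariate for mitochondrial transcripts and Malat1 and the fits without the 6 mice above 20000 cpm were chosen after seeing the data.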

Additional observations from a re-analysis of the deposited data

How the results depend on the processing

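No paired analysis was possible because replicate numbers only name the mice within a group. In EXT against TA, members called at an adjusted p under 0.05 numbered 29 with batch as a number, 27 with no batch term, 5 without batches 3 and 4 and 4 without the 6 mice that stood apart, and 0 in the fit as reported. Members higher and lower at an unadjusted p under 0.05 numbered 7 and 5 with array weights, 1 and 1 with log2 library size as a covariate, and 1 and 2 in females only. Lower members numbered 33 with batch as a number, 33 with no batch term and 4 in males only, and higher members 10 without the 6 mice. With batch as a number and without the 6 mice they were 1 higher and 4 lower. Snrpd2 turned to −0.0319 with batch as a number and −0.0122 with no batch term. In FC against TA, higher members numbered 0 with batch as a number (also without the 6 mice), with no batch term and in females only. Lower members numbered 6 with all 3 groups in one fit, 4 in males only and 16 with the mitochondrial and Malat1 score as a covariate. In EXT against FC, lower members numbered 21 with batch as a number or no batch term, and 1 without batches 3 and 4, with all 3 groups in one fit, with the mitochondrial score or without the 6 mice with either coding of batch. Array weights gave 8 higher and 2 lower, and higher members numbered 0 in males only, 1 in females only and 1 with batch as a number without the 6 mice. Hnrnpf turned to 0.00908 in females only. Beyond the number of mice in the fits by sex and without mice, the cause of these changes was not tested.

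Leaving out 1 mouse at a time gave 0 to 5 called, 3 to 8 higher and 3 to 16 lower members in EXT against TA (EXT replicates 1, 3, 6 and 10 moved a count by over 1.5 times), with a median of −0.13 to −0.03. It gave 0 called, 3 to 7 higher and 7 to 12 lower members in FC against TA (median −0.08 to −0.02), and 0 called, 1 to 3 higher and 0 to 1 lower members in EXT against FC (median −0.08 to 0.002).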
